A study of Mus musculus with 6 samples.

Results

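Nnt and 8 other nuclear genes of the mitochondrial NADPH defence were followed in RNA sequencing of mouse cells labelled as cardiac fibroblasts: Nnt, Idh2, Me3, Gsr, Txn2, Txnrd2, Prdx3, Prdx5 and Sod2. They were picked by name and stand on 10 of the 32479 rows of the deposited table (9 of 32415 symbols), because Nnt occupies 2 rows. Values of this same contrast, above all the low first row of Nnt, were known when the genes were picked, so the members' levels and differences are a description: they carry no p-value, and a call of a member, where one is counted, supports nothing. The table holds 6 libraries of such primary cells: 3 from C57BL/6J control mice and 3 from C57BL/6J mice in which carbon tetrachloride (CCl4), a solvent that scars the liver, was used as a model of cirrhosis. The design text gives 3 mice per group. Not given in the sources used here were dose, duration and route of CCl4, whether controls received a vehicle, and the age and sex of the mice. In the labels the groups differ by treatment alone.

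Mitochondria make superoxide and, from it, hydrogen peroxide as a by-product of respiration, and they clear the peroxide with electrons taken from NADPH. In the matrix NADPH is made by nicotinamide nucleotide transhydrogenase (Nnt), which uses the proton gradient to move hydride from NADH to NADP, by the NADP-dependent isocitrate dehydrogenase Idh2, and by the malic enzyme Me3. Glutathione reductase (Gsr) and mitochondrial thioredoxin reductase (Txnrd2) pass these electrons on to glutathione and to thioredoxin 2 (Txn2), which recharges the peroxiredoxins Prdx3 and Prdx5, while Sod2 turns matrix superoxide into peroxide. Heart muscle cells are packed with mitochondria and Idh2 is among their abundant enzymes. C57BL/6J, as a strain, is known for a deletion inside Nnt that removes coding exons and leaves it without working protein, and the reference genome was sequenced from that strain. The genotype of these mice at Nnt was not tested.

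The 2 rows called Nnt carry no identifier. GENCODE M21, an annotation of the authors' build GRCm38, holds 2 gene models of that name at the same place on chromosome 13, minus strand. One, ENSMUSG00000025453.18, spans 119335448 to 119408997 and has 5 transcripts. The other, ENSMUSG00000116207.1, spans 119335528 to 119408952 and has 1. Every one of the 3339 exonic bases of the smaller model also lies in an exon of the larger one, whose exons cover 7037 bases. No base is therefore exclusive to the smaller model. Nnt-202 of the larger model and Nnt-206, the transcript of the smaller one, have the same coding exons, of 835 codons. The table does not say which row stands for which model, so the rows are called first and second here by their order.

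**Figure D1:**
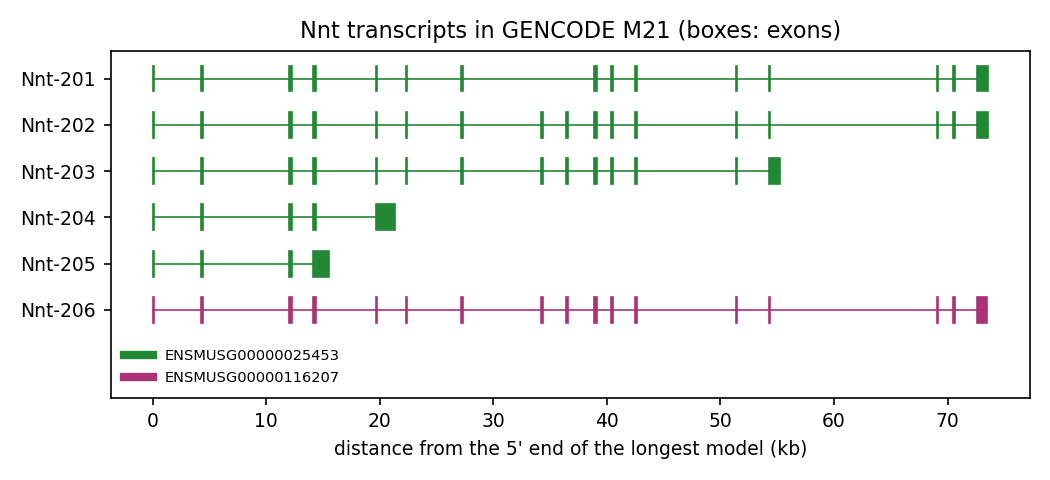
Exons (boxes) of the 6 GENCODE M21 transcripts of Nnt, placed by distance in kb from the 5′ end of the longest model, in green for ENSMUSG00000025453 and in purple for ENSMUSG00000116207. Nnt-206 repeats the exon pattern of Nnt-202, Nnt-201 lacks 2 inner exons, and Nnt-203, Nnt-204 and Nnt-205 end early in a longer last exon.

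Among the features that the larger model has and the smaller lacks is an exon junction of Nnt-201. That transcript leaves out exons 8 and 9 of Nnt-202, at chr13:119374629-119374774 and chr13:119372396-119372591, together 342 coding bases or 114 codons. The sequences below, from the GENCODE transcripts, are shown because they are the stretch where a fragment could tell the 2 splice forms apart. Lower case marks the last 30 bases of exon 7 and capitals the first 30 bases of the exon joined to it, which is exon 8 in Nnt-202 and exon 10 in Nnt-201.
Nnt-202 junction: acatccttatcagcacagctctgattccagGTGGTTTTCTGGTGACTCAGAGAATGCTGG
Nnt-201 junction: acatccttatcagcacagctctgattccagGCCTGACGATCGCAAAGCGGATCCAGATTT
The deposited values are per gene row, so fragments over this junction were not counted here.

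Against their label, the libraries were dominated by heart muscle transcripts, and they were mixed. Levels are in FPKM, a fragment count divided by model length and by the library's total of mapped fragments. Markers of 6 cell types were present, none at 0 in any library, led by Mb (4073 FPKM on average), Actc1 and Pln of heart muscle, Gsn, Dcn and Dpt of fibroblasts, Cdh5, Pecam1 and Egfl7 of endothelium, Lyz2, C1qb and C1qa of macrophages, Rgs5, Acta2 and Kcnj8 of mural cells and Hbb-bs, Hba-a1 and Hba-a2 of red cells. The 12 heart muscle markers summed to 13810 to 17046 FPKM in control and 20169 to 22016 FPKM in CCl4 libraries, with 2 of them called higher (Actc1 and Myl2) and 0 lower. A row is called where limma's adjusted p is under 0.05, which held for 31.8% of all 10995 rows tested. Without control replicate 1, 5 of the 12 were called higher. Without Actc1, a gene singled out after its values were seen, that sum came to 14770, 12535 and 12256 FPKM for the controls, against 15925, 14600 and 14712 FPKM for the CCl4 libraries. Control replicate 1 alone reached the CCl4 range, and the other two controls lay under it. The 10 fibroblast markers summed to 458 to 741.6 and 587.2 to 595.4 FPKM, with 5 called higher (Col1a1, Col1a2, Col3a1, Lum and Dpt). Among the other types, Kdr of endothelium, Acta2 and Cspg4 of mural cells and Cd68 of macrophages were called higher and Cd163 of macrophages lower, and the endothelial sum did not overlap (110.7 to 127.7 and 131.1 to 146.8 FPKM). All 5 red cell genes were called higher, with log2 differences of 1.57 to 1.78. In their sum control replicate 1 (2268 FPKM summed) stood apart from the other controls (537 and 737.9 FPKM) and within the CCl4 range (2231 to 4092 FPKM), so differences are also given without it where they changed most. The part of cell makeup in the members' differences was not tested, and in such bulk samples fewer cells of a type and less RNA per cell cannot be told apart.

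The first Nnt row was the member row with the largest difference. It stood at 59.5, 89.96 and 70.9 FPKM in control replicates 1 to 3 and at 2.27, 2.39 and 2.87 FPKM in CCl4 replicates 1 to 3. All CCl4 libraries lay far under all controls, and the mean was 29.3-fold lower (73.4 ± 15.4 against 2.51 ± 0.317 FPKM; SD, n = 3 each). On the log2(FPKM + 1) scale the first row fell by 4.39 ± 0.15 (SE). Among the 10995 rows with a mean of at least 1 FPKM, which were tested with limma, no other row differed by as much in either direction. Next among the falls came Pdk4, the kinase that restrains pyruvate oxidation, at -4.16, and the early response gene Nr4a1 at -4.01.

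The second row overlapped between the groups. It stood at 69.2, 145.2 and 131.8 FPKM in control and at 90.1, 105.6 and 105.7 FPKM in CCl4 libraries. Control replicate 1 lay under all CCl4 libraries, while the other two controls lay above them. The log2 difference was -0.13 ± 0.25 (SE). Without control replicate 1 it was -0.46, and without control replicate 2 it was 0.07, so 1 control library turned the sign. The second row was called in 1 of 16 alternatives, as lower without control replicate 1.

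Summed over both rows, Nnt was at 128.7, 235.2 and 202.7 FPKM in control and at 92.4, 107.96 and 108.6 FPKM in CCl4 libraries. The groups did not overlap, with means of 188.9 ± 54.6 and 102.97 ± 9.15 FPKM (SD, n = 3 each), so that CCl4 stood at 54.5% of control. The summed log2 difference of -0.83 ± 0.20 (SE) ranked 476th in size, where the first row ranked 1st. Leaving out 1 library moved it between -1.08 (without control replicate 1) and -0.65 (without control replicate 2). In size it lay beside that of Idh2, -0.81 ± 0.08, and which was larger changed with scaling (-0.71 for Nnt and -0.86 for Idh2 with quantile scaling) and with the library left out (-0.65 and -0.76 without control replicate 2).

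A scaling factor common to a library cancels in the split between the rows. The first row held 46.2%, 38.2% and 34.96% of summed Nnt in the 3 controls and 2.46%, 2.21% and 2.64% in the 3 CCl4 libraries (means 39.8% ± 5.80 and 2.44% ± 0.216; SD, n = 3 each). Only 6 symbols of the table stand on exactly 2 rows that both average at least 1 FPKM. The first-row share moved by 37.4 points for Nnt, by 9.59 points for Fam220a, by 4.53 points for Septin2 and by under 4 points for Ptp4a1, 4933434E20Rik and CT010467. With every exonic base of 1 model inside the other, how fragments were divided between the rows and how much Nnt transcript there was cannot be told apart from the single rows, and the sum is the value set beside other genes here. A sum of FPKM over models of unequal length is not itself an exact gene-level FPKM.

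**Figure D2:**
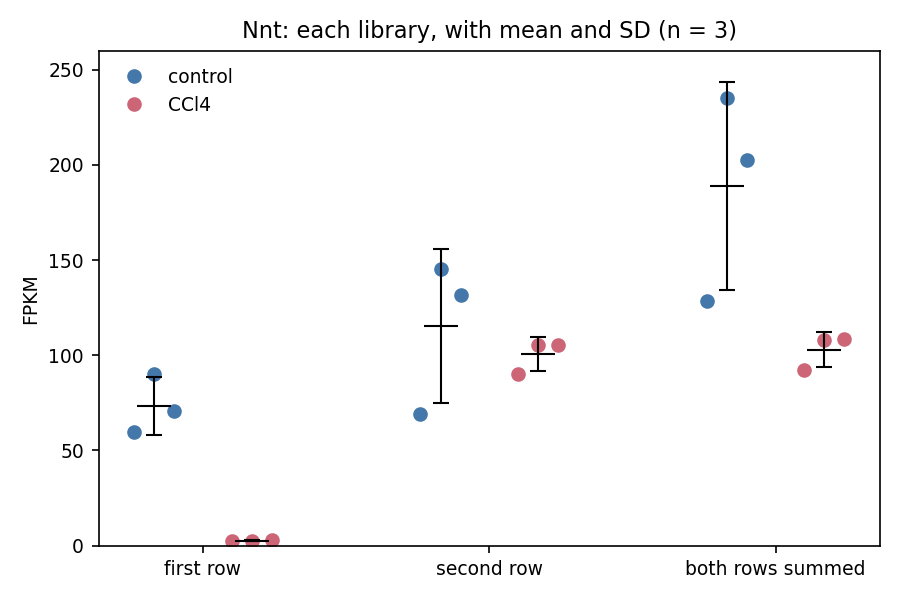
FPKM of the 2 Nnt rows and of their sum (x axis) in each library, blue for control and red for CCl4, with the mean (long tick) and SD (bar, n = 3). The first row sits at 2.27 to 2.87 FPKM in CCl4 against 59.5 to 89.96 FPKM in control, the second overlaps between the groups, and the sum does not.

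On the side of higher coordinates, the nearest 2 genes of the table were called lower, as were 22.2% of all tested rows. Their lowest coordinates lie 93.2 and 127.3 kb above the lowest coordinate of Nnt, a distance that includes the body of Nnt itself. Paip1, a partner of the poly(A)-binding protein, was at 18.6 ± 1.70 and 14.8 ± 1.58 FPKM (log2 difference -0.31 ± 0.10 SE, limma adjusted p = 0.0479), and 4833420G17Rik at 3.96 ± 0.250 and 3.00 ± 0.384 FPKM (-0.31 ± 0.09, adjusted p = 0.0338; SD and SE, n = 3 each). These calls were kept in 8 of 16 and 7 of 15 alternatives, and without control replicate 1 Paip1 was at -0.26 (adjusted p = 0.108). The further neighbours Gm9752 and Fgf10 were under 1 FPKM on average, and Gm16263 and Gm47336 were listed at 0 in all 6 libraries. Of 6 other genes known to differ in copy number, sequence or expression between or within C57BL/6 substrains, Ide, an insulin-degrading protease, fell, from 10.3, 15.7 and 15.1 FPKM in control to 8.99, 9.23 and 8.90 FPKM in CCl4 libraries (-0.53 ± 0.14, adjusted p = 0.0238), a call kept in 8 of 16 alternatives and lost without any 1 library other than control replicate 1. As in the second Nnt row, control replicate 1 was the lowest control. Wdfy1 (1.33 and 1.12 FPKM, adjusted p = 0.256), Entpd4 (7.02 and 7.44 FPKM, adjusted p = 0.517) and Cyfip2 (22.0 and 17.99 FPKM, adjusted p = 0.376) missed the threshold. Fgfbp3 and Crb1 were under the filter and were not tested. Fgfbp3 stood at 0.85, 1.20 and 1.14 FPKM in control, replicate 1 being lowest, and at 0.64, 0.84 and 0.56 FPKM in CCl4 libraries. Crb1 averaged 0.0933 and 0.0533 FPKM and overlapped between the groups.

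The 6 tested rows whose centred profile over the 6 libraries lay closest to that of summed Nnt were Lyve1, A330023F24Rik, Gnmt, Plscr2, Cdkl1 and Mgst1, with Euclidean distances of 0.266 to 0.352 in log2 units. They were chosen for likeness, so their differences carry no test. Lyve1, a hyaluronan receptor of lymphatic vessels and resident macrophages, was at 5.62, 8.68 and 8.60 FPKM in control and at 3.02, 4.37 and 4.10 FPKM in CCl4. Mgst1, a membrane glutathione transferase found in mitochondria among other membranes, was at 13.8, 22.8 and 23.2 FPKM against 11.7, 13.1 and 11.0 FPKM. In both, as in summed Nnt, control replicate 1 was the lowest control.

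Idh2 was the most abundant member and was lower in every CCl4 library. It lies on chromosome 7 at 80094846 to 80115392, minus strand. It stood at 853.3, 925.5 and 811.4 FPKM in control and at 478.2, 496.5 and 500.7 FPKM in CCl4 libraries. The groups were wide apart and the spread within each was small (863.4 ± 57.7 and 491.8 ± 12.0 FPKM; SD, n = 3 each), a 1.76-fold lower mean. The log2 difference was -0.81 ± 0.08 (SE), and it lay between -0.97 and -0.70 over 16 alternatives (-0.82 without control replicate 1). Over the tested rows its mean level lay at the 99.5th percentile, that of summed Nnt at the 98.2nd.

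Me3, the third NADPH source, was a low gene and overlapped between the groups. It lies on chromosome 7 at 89632392 to 89854359, and was at 5.26, 5.14 and 4.92 FPKM in control and at 4.85, 5.00 and 5.37 FPKM in CCl4, a log2 difference of -0.01 ± 0.07 (SE) whose sign turned in 5 of 16 alternatives. Added up, the NADPH sources Nnt, Idh2 and Me3 were at 987.3, 1166 and 1019 FPKM in control and at 575.4, 609.5 and 614.6 FPKM in CCl4 libraries. Idh2 made up 81.8% ± 3.998 of that sum in control and 82.0% ± 0.942 in CCl4 (SD, n = 3 each). The ratio of Idh2 to summed Nnt overlapped between the groups, at 4.86 ± 1.54 and 4.80 ± 0.328 FPKM of Idh2 for each FPKM of Nnt, with control replicate 1 highest at 6.63.

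The reductases that spend the NADPH were 2 of the 3 least abundant members. Gsr, the glutathione reductase that serves cytosol and mitochondria, lies on chromosome 8 at 33652523 to 33698163. It was at 6.25, 5.71 and 5.99 FPKM in control and at 4.17, 4.25 and 5.16 FPKM in CCl4 libraries, without overlap (-0.34 ± 0.09 SE). Over 16 alternatives the difference lay between -0.51 (rescaled to a common sum) and -0.25 (median-ratio scaling), and it was -0.31 without control replicate 1. The Gsr call was kept in 9 of the 16, and in only 2 of the fits with 1 library left out. Txnrd2, the selenoenzyme that reduces mitochondrial thioredoxin (chromosome 16, 18426384 to 18479073), was at 5.26, 5.58 and 4.34 FPKM and at 5.16, 4.56 and 4.89 FPKM, fully overlapping (-0.04 ± 0.10 SE).

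The genes for the thioredoxin and the peroxiredoxins, which meet the peroxide, all overlapped between the groups. Prdx3 (chromosome 19, 60864051 to 60874556), the matrix peroxiredoxin and the most abundant of them, was at 152.3, 136.6 and 130.2 FPKM in control and at 131.9, 142.4 and 147.5 FPKM in CCl4 (0.01 ± 0.09 SE). Its sign was opposite in 5 of 16 alternatives, among them rescaling to a common sum (-0.14). Prdx5 (chromosome 19, 6906697 to 6910106), which also acts in cytosol and peroxisomes, was at 73.8, 63.1 and 65.4 FPKM and at 77.4, 71.95 and 72.3 FPKM (0.13 ± 0.08 SE), and 19.1% of its exonic bases are shared with Trmt112 on the opposite strand (9.65 and 8.01 FPKM). Whether the deposited quantification used strand was not given in the sources used here, so reads of these 2 genes may be mixed. Txn2 (chromosome 15, 77915047 to 77929006), the thioredoxin that recharges both, was at 30.7, 24.95 and 24.8 FPKM and at 29.9, 31.6 and 33.8 FPKM (0.24 ± 0.10 SE). In Txn2 and Prdx5 control replicate 1 alone reached the CCl4 range. Without it the difference was 0.34 for Txn2 and 0.20 for Prdx5. Over the alternatives Txn2 lay between 0.09 and 0.39, and Prdx5 between -0.02 (rescaled to a common sum) and 0.27 (quantile scaling). Txn2 was called higher in 4 of 16 alternatives, among them that without control replicate 1. Prdx5 was called higher in 1 of 16, with quantile scaling.

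Sod2 was the one member that was higher in every CCl4 library than in every control. The gene of the manganese superoxide dismutase lies on chromosome 17 at 13006846 to 13040063. It was at 35.1, 27.0 and 28.3 FPKM in control and at 39.5, 38.5 and 41.8 FPKM in CCl4, a mean 1.32-fold higher (30.1 ± 4.37 and 39.9 ± 1.73 FPKM; SD, n = 3 each). The log2 difference of 0.40 ± 0.11 (SE) kept its sign in all 16 alternatives, from 0.25 to 0.53 (0.51 without control replicate 1). The Sod2 call was kept in 9 of the 16, and in only 1 of the fits with 1 library left out.

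**Figure D3:**
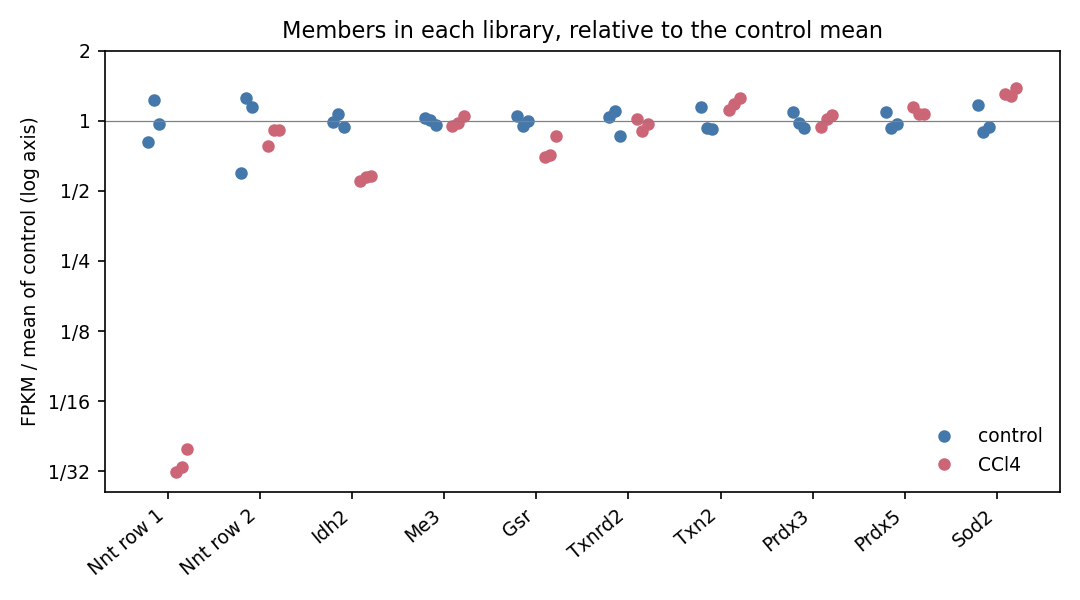
FPKM of each member row in each library, divided by the mean of the 3 control libraries (log axis, base 2), blue for control and red for CCl4. The first Nnt row lies near 1/32 in CCl4, Idh2 and Gsr lie under all controls, Sod2 lies above them, and the other 6 rows overlap.

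In all, 4 of the 10 member rows were called at an adjusted p of 0.05 in limma, 3 lower (the first Nnt row, Idh2 and Gsr) and 1 higher (Sod2), and between 2 and 5 were called when 1 library was left out. Over all tested rows 31.8% were called, 22.2% lower and 9.64% higher. The share of calls that were higher, 30.3%, depended on scaling and was 12.8% after rescaling to a common sum, 20.4% with mitochondrial genome rows removed, 52.4% with median-ratio and 51.2% with quantile scaling. The groups did not overlap in 4 member rows, against 48.7% of all tested rows. Since this contrast was known when the genes were picked, nothing is read from these counts and shares. The median log2 difference was -0.03 over the member rows and -0.09 over all tested rows. All 10 member rows passed the filter, and none rested on a group at 0.

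Mitochondrial members and their cytosolic counterparts can be set against each other within a library, where scaling cancels. The ratio of Idh2 to Idh1, the cytosolic isocitrate dehydrogenase, was 48.8, 80.1 and 63.3 in control and 30.5, 26.9 and 29.9 in CCl4 libraries. That of Sod2 to the cytosolic dismutase Sod1 was 1.16, 0.841 and 0.863 against 1.99, 2.26 and 2.41. That of Me3 to Me1 was 0.165, 0.166 and 0.150 against 0.232, 0.236 and 0.264. Each of these 3 ratios was without overlap between groups, lower in CCl4 for Idh2 and higher for Sod2 and Me3. Groups of 3 also did not overlap in 48.7% of all tested rows. No such share was computed for ratios of other genes, so nothing is read from the separation. Idh1 itself was at 13.9 ± 3.11 and 16.9 ± 1.40 FPKM (adjusted p = 0.162 in limma). Without control replicate 1, the highest control for Idh1 at 17.5 FPKM, its log2 difference went from 0.28 to 0.44 and it was called higher (adjusted p = 0.0126). The other two counterparts fell, Me1 from 31.9 ± 0.960 to 20.8 ± 0.412 FPKM (adjusted p = 0.00081) and Sod1 from 31.7 ± 1.32 to 18.0 ± 1.52 FPKM (adjusted p = 0.000564; limma, SD, n = 3 each). The ratios Txn2 to Txn1 (1.04 ± 0.138 and 1.31 ± 0.175), Txnrd2 to Txnrd1 (0.756 ± 0.0978 and 0.833 ± 0.0830), Prdx3 to Prdx1 (2.83 ± 0.116 and 2.86 ± 0.344) and Prdx5 to Prdx6 (2.60 ± 0.134 and 2.82 ± 0.188) overlapped between the groups. Among 10 ratios computed, that of Sod2 to Gpx1 was also without overlap, and lower in CCl4 (1.40 ± 0.0376 and 1.23 ± 0.0724).

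**Figure D4:**
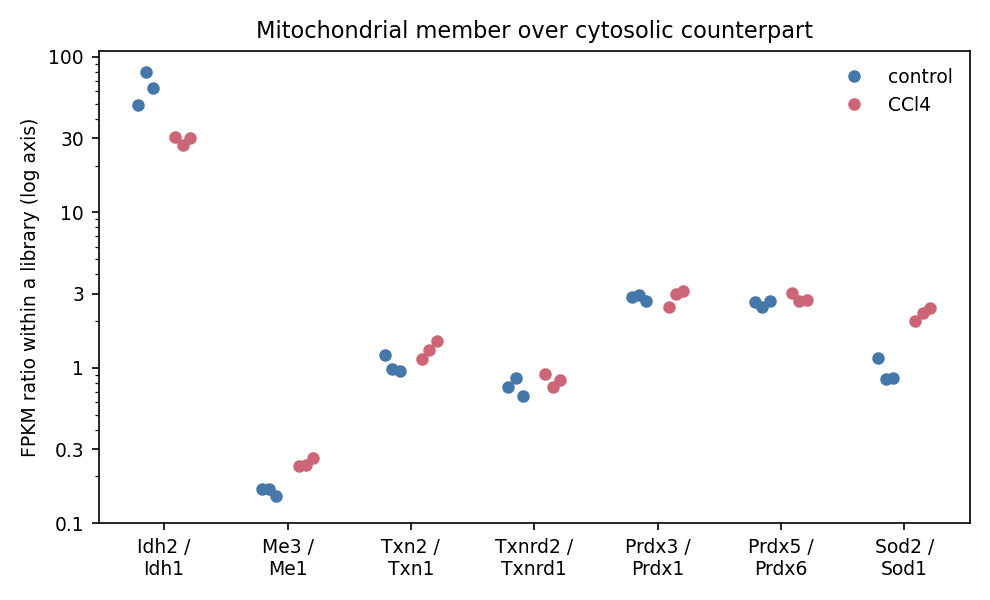
Ratio of FPKM of a mitochondrial member to a cytosolic counterpart within each library (log axis), blue for control and red for CCl4. Idh2 to Idh1 lies at 48.8 to 80.1 in control and 26.9 to 30.5 in CCl4, Sod2 to Sod1 and Me3 to Me1 are higher in CCl4 without overlap, and the other 4 ratios overlap.

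Other mitochondrial genes listed for NADP and NADPH supply were mixed, and not every one is itself an NADPH source. Of 8 listed genes 4 passed the filter, and 1 of them fell and 2 rose (75% called, against 31.8% of all tested rows). Nadk2, the mitochondrial NAD kinase that makes the NADP that NADPH sources reduce, fell from 17.3 ± 0.240 to 11.7 ± 1.16 FPKM (log2 difference -0.54 ± 0.08 SE, limma adjusted p = 0.00302), and passed in all 16 alternatives. Glutamate dehydrogenase Glud1 rose from 28.8 ± 1.24 to 35.0 ± 2.73 FPKM (0.27, adjusted p = 0.0385), a call kept in 8 of 16 alternatives, and the malic enzyme Me2 rose from 0.863 ± 0.0513 to 1.23 ± 0.133 FPKM (0.26, adjusted p = 0.0485), kept in 4 of 14 and lost without control replicate 1 (adjusted p = 0.105). Among the one-carbon enzymes Shmt2 averaged 9.33 FPKM in control and 8.52 FPKM in CCl4 (adjusted p = 0.369, not called), and Mthfd2, Mthfd2l, Mthfd1l and Aldh1l2 were under the filter.

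Among 21 further genes listed for mitochondrial thiol, peroxide and aldehyde defence, all of them tested, 9 rose and 3 fell. That is 57.1% called, against 31.8% of all tested rows. The list also holds carriers and a ferredoxin with its reductase, and not every product is confined to mitochondria. The glutathione peroxidase Gpx1, shared by cytosol and mitochondria, rose from 21.5 ± 2.93 to 32.5 ± 2.05 FPKM (0.58 ± 0.11 SE, limma adjusted p = 0.00547). Glrx5, a glutaredoxin of iron-sulfur cluster assembly, rose by 0.50 (adjusted p = 0.0123), and the persulfide dioxygenase Ethe1 by 0.55 (adjusted p = 0.00767). The ferredoxin Fdx1, which carries electrons from NADPH, rose by 0.60 (adjusted p = 0.00497) and its reductase Fdxr by 0.51 (adjusted p = 0.0179). Slc25a11, the oxoglutarate carrier, rose by 0.43 (adjusted p = 0.00683). The deacetylase Sirt3, which acts on Idh2 and Sod2 protein, the methionine sulfoxide reductase Msra and the dicarboxylate carrier Slc25a10 made up the 9, with calls kept in 8 of 15, 12 of 16 and 6 of 15 alternatives.

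The 3 falls were the glutathione transferases Mgst3, from 159.2 ± 16.97 to 96.2 ± 8.04 FPKM (adjusted p = 0.00185), and Mgst1 (-0.66, adjusted p = 0.0263), and the aldehyde dehydrogenase Aldh2, from 56.7 ± 4.46 to 35.0 ± 2.11 FPKM (adjusted p = 0.00122). The Mgst1 call was kept in 9 of 16 alternatives. The most abundant uncalled genes were Gpx4, which repairs lipid peroxides, at 156.2 and 153.6 FPKM (adjusted p = 0.816), and Gstk1 at 30.4 and 27.8 FPKM (adjusted p = 0.269). Both mitochondrial lists together had 15 of 25 tested genes called (60.0%, against 31.8% of all rows) with a median log2 difference of 0.06. The gene lists used here were chosen with earlier results of these data known, so nothing is read from their shares of calls. Among all rows with a mean of at least 5 FPKM, 2165 of 4915 were called. Rescaled to a common sum, 6 genes of both mitochondrial lists rose and 6 fell, and with no filter 5 and 3. Without control replicate 2 or CCl4 replicate 3 it was 6 and 3, and without control replicate 1 it was 9 and 4.

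Of 19 cytosolic, secretory and peroxisomal counterparts 2 rose and 5 fell, 36.8% called against 31.8% of all tested rows, with a median log2 difference of 0.00231. Without control replicate 1, 3 rose and 5 fell, Idh1 being added. The largest was Txnip, the inhibitor that binds thioredoxin and responds to glucose, from 402.4 ± 49.9 to 118.1 ± 20.9 FPKM (-1.77 ± 0.15 SE, limma adjusted p = 0.000211). Cat, the peroxisomal catalase, fell from 122.4 ± 11.2 to 61.8 ± 2.94 FPKM (adjusted p = 0.000326). Sod1, Me1 and H6pd, the NADPH source of the endoplasmic reticulum lumen (8.65 ± 0.581 and 5.22 ± 0.483 FPKM, adjusted p = 0.00158), also fell. Glrx, the cytosolic glutaredoxin, was raised from 2.30 ± 0.323 to 4.44 ± 0.176 FPKM (adjusted p = 0.00107), and Sod3, the extracellular dismutase, from 5.61 ± 0.798 to 9.74 ± 0.460 FPKM (adjusted p = 0.00173). Prdx2 and Prdx1, the most abundant uncalled genes, differed by -0.03 and 0.00308 (adjusted p = 0.831 and 0.981), and the pentose phosphate enzymes G6pdx and Pgd by 0.07 and 0.04 (adjusted p = 0.676 and 0.74).

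**Figure D5:**
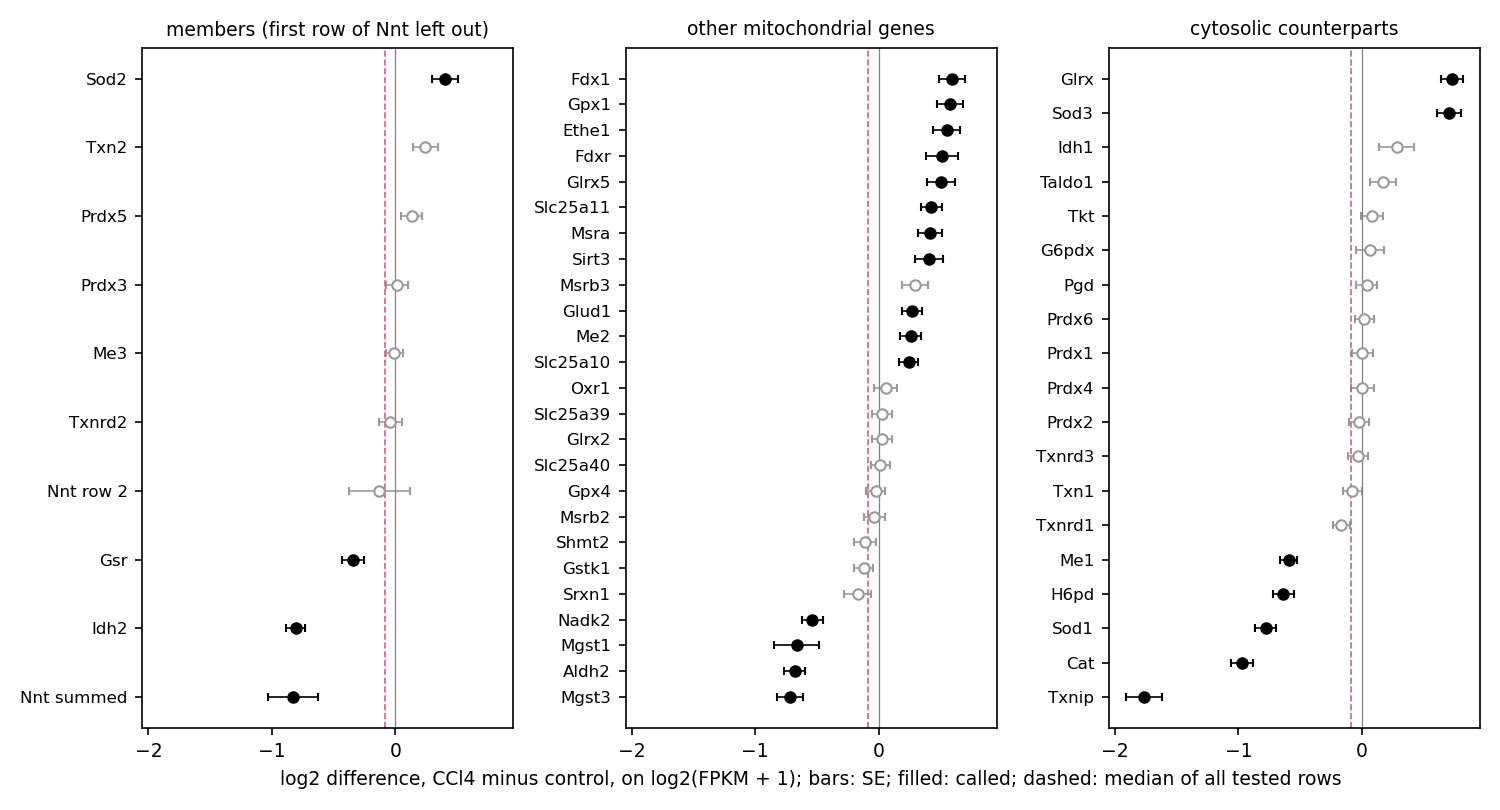
Log2 difference, CCl4 minus control, with SE on the log2(FPKM + 1) scale for members (left, first Nnt row at -4.39 left out), other mitochondrial genes (middle) and cytosolic counterparts (right); filled points were called at an adjusted p of 0.05, and the dashed line is the median of all tested rows. In the middle panel 11 filled points lie above and 4 below 0.

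Genes of mitochondrial content were measured beside these. The 24 nuclear genes of mitochondrial content, such as Cs and Vdac1, summed to 4439 ± 388 FPKM in control and 4307 ± 140 FPKM in CCl4 (SD, n = 3 each; exact permutation p = 0.8), with 4 called higher and 3 lower, or 29.2% against 31.8% of all tested rows. Without control replicate 1, 8 were called higher and 3 lower. Rows of the mitochondrial genome took 49.96% ± 1.16 and 52.7% ± 0.595 of the FPKM sum (exact permutation p = 0.1, the smallest that 3 against 3 libraries allow, and 0.225 adjusted over 9 library measures).

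Promoters were at hand in the RefSeq table of GRCm38.p6 for 7 of the 9 genes. The antioxidant response element that NRF2 binds, searched as TGANNNNGC on both strands in the 250 bases before the start site, was found in 4 of the 7, Idh2, Me3, Txn2 (at 2 places) and Prdx5, and in 35.2% of all 32851 promoters. Matches to the FOXO motif GTAAACA, the ERR motif AAGGTCA, the E-box CACGTG and the NRF1 motif were found in 0 of the 7 and in 3.17%, 4.08%, 6.02% and 3.74% of all promoters. The promoters of Idh2 and Sod2 are shown because these were the most abundant single-row members without overlap in either direction, at chr7:80115351-80115600 (minus strand) and chr17:13007589-13007838 (plus strand), with the antioxidant match in capitals. In Idh2 it begins 142 bases before the start site, on the opposite strand, and Sod2 has no match in this window. The start sites are those of RefSeq and differ from the GENCODE starts given above. The Sod2 window lies inside the GENCODE gene, which begins at 13006846, and that of Me3 lies inside its gene, which begins at 89632392. Bases before those 2 GENCODE starts were not searched.
Idh2 promoter: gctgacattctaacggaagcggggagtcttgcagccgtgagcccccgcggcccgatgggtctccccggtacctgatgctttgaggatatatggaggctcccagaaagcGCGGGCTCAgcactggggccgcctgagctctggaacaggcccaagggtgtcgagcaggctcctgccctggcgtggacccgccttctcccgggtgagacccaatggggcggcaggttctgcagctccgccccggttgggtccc
Sod2 promoter: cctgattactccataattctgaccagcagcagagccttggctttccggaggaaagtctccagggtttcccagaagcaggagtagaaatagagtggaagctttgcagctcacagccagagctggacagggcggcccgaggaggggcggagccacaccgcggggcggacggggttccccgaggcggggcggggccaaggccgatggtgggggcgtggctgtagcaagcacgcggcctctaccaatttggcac
A match of letters describes the sequence and no binding.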

How the data were processed

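RNA sequencing of 6 libraries was used. The authors deposited FPKM values made with StringTie 2.1.6 and the build GRCm38, as listed per the submitters' processing notes. Aligner, annotation release, filters and strand setting were not given in the sources used here. Libraries came from oligo(dT) capture with a uracil-marked second strand, per the labels' protocols. Low values of single-exon genes gave a rough depth of 31300000 to 41800000 fragments per library, with only 26.3% to 33.4% of values within 0.1 of a whole fragment, so no count test was run. That depth was 41800000, 39800000 and 38000000 in control and 31300000, 38000000 and 32900000 in CCl4 libraries. FPKM sums were 519609, 542738 and 542344 in control and 602763, 588660 and 595788 in CCl4 libraries, without overlap. An exact permutation test of the sums gave p = 0.1, the smallest possible, and 0.225 adjusted over 9 library measures.

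Values were transformed to log2(FPKM + 1); 10995 rows with a mean of at least 1 FPKM were tested with limma 3.58.1 in R 4.3.3 (trend, two-sided, no covariate) and adjusted by Benjamini-Hochberg over all of them. The 2 Nnt rows were kept apart and, in a second fit, replaced by their sum. Each limma p-value sets the group difference of a row against the spread between libraries within the groups, moderated over all rows tested. It cannot tell treatment apart from a batch that a whole group shares. Library measures were compared by exact two-sided permutation tests. Members and lists were chosen with earlier results of these data known. Named were all members, called list genes (up to 8) with the most abundant 2 uncalled ones, the 6 rows nearest to summed Nnt, its 3 neighbours on each side, the substrain genes and the 3 most abundant markers per cell type; Pdk4, Nr4a1, Slc25a11, Msra, Sirt3, Slc25a10, G6pdx, Pgd, Idh1 and Trmt112, and called or changed markers were named after their values were seen. Alternatives are given in the closing section.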

Additional observations from a re-analysis of the deposited data

How the results depend on the processing

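Over 16 alternatives the differences of the first Nnt row, summed Nnt, Idh2, Gsr and Sod2 kept their direction, from which nothing is read, since this contrast was known when they were picked. The 4 called member rows became 2 with no filter and ran from 2 to 5 when 1 library was left out; the summed Nnt difference then ran from -1.08 to -0.65. The first Nnt row stood at -4.80 with a pseudocount of 0.1. All called rows, 3501, fell to 2165 with a mean of at least 5 FPKM, where fewer rows were tested, and to 2180 to 3260 with 1 library left out. Other mitochondrial genes called, 15, were 8 with no filter and 9 to 13 with 1 library left out; cytosolic counterparts stayed at 6 to 8. The median of all tested rows was -0.09, and -0.23 after rescaling to a common sum, -0.14 without mitochondrial genome rows, -0.00240 with median-ratio and -0.00568 with quantile scaling. Apart from the smaller number of rows tested, the cause of these changes was not tested. Same-numbered libraries did not deviate together (correlations of -0.06, 0.05 and -0.04), nor did each correlate best with its own number. With 3 libraries per group, these values cannot exclude a pairing. With the replicate block 2651 rows were called, 4 of them members, and 12 other mitochondrial genes and 7 cytosolic counterparts. Summed Nnt stayed at -0.83 there, with an SE of 0.13 against 0.20 without the block. Depth, known only roughly, limits the low members Me3, Gsr and Txnrd2 most.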
